A study of Mus musculus with 6 samples.

Results

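Hepatocytes, the main cells of the liver, make secreted and membrane-bound proteins that attract, hold and maintain immune cells. The messages described here come from 10 genes, taken by name from a table of 54118 gene models: the chemokines Cxcl1, Cxcl2, Cxcl10, Cxcl16, Ccl2 and Cx3cl1, the cytokines Csf1, Lif and Il23a, and the adhesion molecule Icam1. They were chosen by how their levels differed between the 2 groups of the study and by how 1 library stood apart. Their differences between these libraries are therefore a description and carry no test.

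Chemokines are small proteins that bind receptors on white blood cells and set the direction in which those cells move. Many of their genes lie in clusters of close relatives, and their transcription is known to be switched on by NF-kB, a factor that cytokine and Toll-like receptors release from its inhibitors. Many chemokine and cytokine messages are short-lived, because AU-rich elements in the 3' untranslated region (UTR) recruit decay factors such as tristetraprolin. HuR, the protein of the gene Elavl1, binds the same kind of element and is known to stabilise many of its target messages.

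Cells were primary hepatocytes, isolated from C57BL/6 mice by perfusing the liver with collagenase and kept in an RPMI medium with 2% fetal bovine serum. They were infected overnight with an adenovirus for beta-galactosidase (beta-Gal, the control protein) or for HuR, with 3 libraries in each group. Both groups thus carry an adenovirus and an overexpressed protein, and uninfected cells were not analysed here. The labels give neither age, sex nor the number of animals, and nothing says that the libraries came from separate mice or cultures, so a p-value measures the spread between these libraries only. Levels are the authors' FPKM, fragments scaled to the length of the gene model and the size of the library. The length used is the whole span of the gene for Cxcl1 (1875 bases), Cxcl2 (2068) and Cxcl10 (2252). For others, such as Ccl2 (1138) and Icam1 (4360), it is shorter than the span. Comparisons of levels between genes therefore depend on these lengths.

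Each library held 15413306 to 17108184 reads assigned to genes, so that 1 read on a model of 1 kb was worth 0.0573 to 0.0664 FPKM. Elavl1 stood at 5.45, 5.91 and 5.62 FPKM in the beta-Gal libraries and at 2434, 1662 and 1709 FPKM in the HuR libraries, in the direction of the labels. HuR replicate 1 stood apart from the other HuR libraries: 88 of 11281 genes, or 0.78%, were at least 2-fold higher in it than in each of HuR replicates 2 and 3 on the log2(FPKM + 1) scale. In each of the other libraries, 13 to 23 genes were as far above both libraries of the same group. The 8 hepatocyte markers summed to 17799 to 18145 FPKM in beta-Gal and to 19066 to 20317 FPKM in HuR, most of it Alb. Cps1, a urea cycle enzyme, was lower in HuR, at 17.1 to 19.3 FPKM against at least 28.0 FPKM, and so was Cyp2e1, at 603 to 658 FPKM against 671 to 682 FPKM. The other way, Tat, Serpina1a, Apoa1, Alb and Ttr were higher in every HuR library than in every beta-Gal library. Tat stood at 40.8 to 45.0 FPKM in HuR against 26.3 to 28.2 FPKM. For Hnf4a the groups overlapped. Of the 10 markers of Kupffer cells and macrophages, 9 stayed under 1 FPKM in every library. The exception was Cd68, which took nearly all of a list sum of 17.8 to 21.6 FPKM in beta-Gal and 31.5 to 39.9 FPKM in HuR. The other 9 summed to 1.26 to 1.88 FPKM in beta-Gal and to 0.460 to 2.87 FPKM in HuR, with the lowest value in HuR replicate 1. All 7 neutrophil markers, all 8 markers of T, B and NK cells and all 8 stellate cell markers stayed under 1 FPKM in every library, and 3, 5 and 1 of them, in that order, were at 0 throughout. The 7 endothelial markers summed to 4.19 to 4.64 FPKM in beta-Gal and 5.49 to 6.50 FPKM in HuR, and the 6 cholangiocyte markers to 138 to 151 and 180 to 198 FPKM, most of it Spp1, which is also in the list of other cytokines. Whether the shifts in Cd68, endothelial and cholangiocyte markers bear on the levels below was not tested. In bulk RNA, more cells of a type and more message per cell cannot be told apart.

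Of the 10 genes, 9 passed a minimum of 1 FPKM in at least 3 of the 6 libraries. Cx3cl1 did not. Lif passed through the HuR libraries alone, so its groups had to lie apart once it passed. Il23a reached 1 FPKM in only 1 beta-Gal library, so it passed mostly through the HuR libraries. In all 9 the 3 HuR libraries lay above the 3 beta-Gal libraries, as they did in 27.4% of the 11281 genes tested. In all 9, HuR replicate 1 was the highest library. By limma with Benjamini-Hochberg adjustment, 20.7% of all genes tested were called higher in HuR and 24.8% lower, or 2334 and 2803 genes. After TPM scaling, in which each library sums to the same total, 1543 were called higher and 3718 lower. Of the 9, 7 fell among the higher calls and 0 among the lower, a count that their choice fixes in direction and from which nothing is read. The median difference of HuR minus beta-Gal was 1.82 on the log2(FPKM + 1) scale over the 9 and -0.0099 over all genes tested. The 10 levels summed to 145, 148 and 165 FPKM in beta-Gal, to 2129 FPKM in HuR replicate 1, and to 388.2 and 388.5 FPKM in HuR replicates 2 and 3. Cxcl1, Ccl2 and Cxcl2 made up 77.7%, 78.1% and 80.8% of that sum in beta-Gal and 89.7%, 81.1% and 81.5% in HuR.

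**Figure D1:**
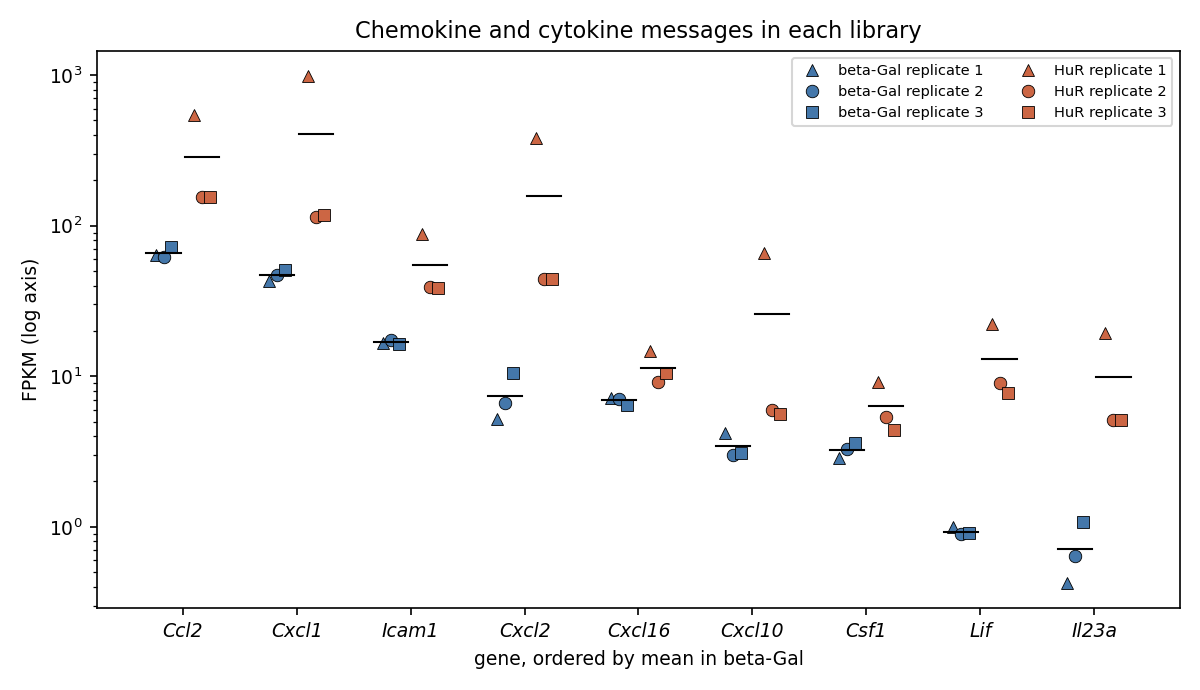
FPKM of 9 genes in each library on a log axis, with points for the libraries and black lines for the group means; Cx3cl1, at or near 0, is not drawn. In every panel the HuR points lie above the beta-Gal points, and HuR replicate 1 is the highest point.

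Cxcl1 and Cxcl2 encode chemokines that draw neutrophils through the receptor CXCR2. Cxcl1 lies at chr5:90891241-90893115 on the plus strand of GRCm38. It stood at 43.1, 47.0 and 50.8 FPKM in beta-Gal and at 985, 115 and 118 FPKM in HuR replicates 1, 2 and 3. HuR replicate 1 was the outlying library and held 27814 reads of the gene, against 3620 and 3451 in the other HuR libraries and 1351 to 1625 in beta-Gal. The group means were 47.0 ± 3.84 and 406 ± 502 FPKM (SD, n = 3 each), so that the SD of the HuR group exceeds its mean. The mean of HuR replicates 2 and 3 was 2.48 times that of beta-Gal, and HuR replicate 1 was 8.46 times the mean of the other HuR libraries.

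Cxcl2, at chr5:90903871-90905938 on the same strand, started lower, at 5.21, 6.60 and 10.5 FPKM in beta-Gal. The HuR libraries held 382, 44.2 and 44.5 FPKM. Again the groups did not overlap, and the gap within the HuR group was wider than the gap between beta-Gal and HuR replicates 2 and 3: 8.62-fold against 5.97-fold. The means were 7.43 ± 2.74 and 157 ± 195 FPKM (SD, n = 3 each). Cxcl1 and Cxcl2 thus differed more from each other in the smaller step than in the step to HuR replicate 1.

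These genes carry the densest AU-rich stretches among the 10, and their 3' UTRs are shown for that reason. The windows below hold the most ATTTA pentamers within 30 bases, written as DNA 5' to 3' on the strand of the gene, with the pentamers in capitals. They were read from GENCODE transcripts on GRCm38, at chr5:90892606-90892635 for Cxcl1 and chr5:90905327-90905356 for Cxcl2, both on the plus strand.
Cxcl1: gtcctATTTATTTAtgtATTTATTTAttcc
Cxcl2: tATTTATTTAtctatgtATTTATTTATTTA
The Cxcl1 window holds 4 pentamers in overlapping pairs and the Cxcl2 window 5. The whole 3' UTR holds 7 in Cxcl1 and 11 in Cxcl2, or 11.8 and 15.0 per kb.

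The RefSeq start regions of both genes, read on GRCm38.p6, are shown because a stretch that matches the NF-kB (kappa-B) consensus sits near the start site in each. The 200 bases before the start are given 5' to 3' on the plus strand, at chr5:90891045-90891244 for Cxcl1 and chr5:90903699-90903898 for Cxcl2. Capitals mark matches to the kappa-B consensus or to GGAANTTCC.
Cxcl1: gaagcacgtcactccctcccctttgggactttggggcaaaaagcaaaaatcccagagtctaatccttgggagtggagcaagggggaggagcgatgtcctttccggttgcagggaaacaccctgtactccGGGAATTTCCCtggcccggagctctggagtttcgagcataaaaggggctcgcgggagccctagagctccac
Cxcl2: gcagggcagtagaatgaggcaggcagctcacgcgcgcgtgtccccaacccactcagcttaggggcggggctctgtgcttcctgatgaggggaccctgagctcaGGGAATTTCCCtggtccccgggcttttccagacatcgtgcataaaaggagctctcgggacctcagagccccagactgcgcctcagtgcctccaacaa
The same 11 letters stand in capitals in both, and begin at -71 from the start in Cxcl1 and at -97 in Cxcl2. In each, the kappa-B consensus matches on both strands and GGAANTTCC lies inside it.

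Cxcl1 and Cxcl2 belong to a cluster on chromosome 5 whose other genes were low. Cxcl5 and Cxcl3 stayed at or under 1.06 FPKM in every library, and Ppbp and Cxcl15 were at 0 in all of them. The coding sequences of Cxcl1 and Cxcl2 are 78.7% identical, with a longest shared run of 23 bases. Cxcl2 and Cxcl3 are 89.8% identical and share a run of 110 bases, so that reads of these genes could be assigned to either. How reads with several matches were counted is unstated in the labels.

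Ccl2 encodes the chemokine that draws monocytes through CCR2. At chr11:82035571-82037453, plus strand, it was the highest of the 10 in beta-Gal, with 63.9, 62.1 and 72.1 FPKM, and second to Cxcl1 in HuR replicate 1, with 542 FPKM. HuR replicates 2 and 3 held 156 and 154 FPKM, above Cxcl1 in the same libraries. In reads, Cxcl1 was above Ccl2 in every library, with 1351 to 1625 against 1215 to 1400 in beta-Gal. Their order in FPKM thus rests on the gene lengths used. For Ccl2 the groups did not overlap, with means of 66.1 ± 5.34 and 284 ± 224 FPKM (SD, n = 3 each). HuR replicates 2 and 3 averaged 2.34 times beta-Gal, close to the 2.48 of Cxcl1, whereas the step to HuR replicate 1 was 3.50-fold. Its 3' UTR holds 1 ATTTA.

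The neighbour of Ccl2, Ccl7, another monocyte chemokine on the same strand 8258 bases further on, stood at 3.14, 3.51 and 4.10 FPKM in beta-Gal and 21.1, 5.80 and 5.76 FPKM in HuR. As for Ccl2, HuR replicate 1 was the highest library and HuR replicates 2 and 3 lay above beta-Gal, at a lower level. The limma difference was 1.14 ± 0.45 (SE, log2) with an adjusted p of 0.0787, and 0.57 with an adjusted p of 0.00467 without HuR replicate 1. The coding sequences of Ccl2 and Ccl7 are 66.7% identical, with a longest shared run of 23 bases. Ccl11, Ccl12 and Ccl1, in the same cluster, were at 0 in all 6 libraries.

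Cxcl10 encodes an interferon-inducible chemokine that draws activated T cells and NK cells through CXCR3. It lies at chr5:92346638-92348889 on the minus strand. Its levels were 4.20, 3.00 and 3.07 FPKM in beta-Gal and 66.0, 5.95 and 5.58 FPKM in HuR. HuR replicates 2 and 3 were 1.68 times beta-Gal, and HuR replicate 1 was 11.4 times the other HuR libraries, the widest such gap of the 9. The means were 3.43 ± 0.672 and 25.8 ± 34.8 FPKM (SD, n = 3 each). The other CXCR3 ligands lie beside it. Cxcl9 stood between 21.3 and 24.3 FPKM in all 6 libraries, with an adjusted p of 0.157 by limma, and Cxcl11 held 8, 10 and 9 reads in beta-Gal and 52, 24 and 13 in HuR. Cxcl11 was not tested and was picked after its values were seen. In HuR replicate 1, Cxcl10 was thus above Cxcl9, and in the other 5 libraries below it.

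Cxcl16 and Cx3cl1 encode the chemokines that are made as membrane proteins and released by proteases of the ADAM family. Cxcl16, at chr11:70453983-70459984 on the minus strand, had the narrowest gap between HuR replicate 1 and the other HuR libraries. It stood at 7.16, 7.10 and 6.48 FPKM in beta-Gal and at 14.7, 9.10 and 10.4 FPKM in HuR. The HuR libraries were all higher, but HuR replicate 1 was only 1.51 times the mean of the other HuR libraries. The gene overlaps Zmynd15 on the opposite strand, at 1.05 to 1.60 FPKM, and ends 255 bases from Med11, also on the opposite strand, which stood at 13.0 to 13.6 FPKM in beta-Gal and at 19.0, 16.4 and 17.9 FPKM in HuR. The labels do not say whether the counting used strand, so reads from overlapping genes cannot be told apart. Cx3cl1, at chr8:94772009-94782427 on the plus strand, had 3 reads in beta-Gal replicate 2, or 0.0438 FPKM, and 0 in the other 5 libraries. A count of 3 reads, the floor chosen here, corresponds to 0.0438 to 0.0507 FPKM for this gene. No library was above that floor, so no fold is given.

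The sheddases and partner adhesion molecules make up a list of 19 genes, 7 of them tested. Of these, 1 rose and 2 fell in HuR (14.3% and 28.6%, against 20.7% and 24.8% of all genes tested), and the median difference was 0.13. TPM scaling gave 0 higher and 3 lower, voom gave 3 higher and 2 lower, and without HuR replicate 1 there were 2 higher and 3 lower. Adam10, the protease that releases Cxcl16 and Cx3cl1 in resting cells, fell from 14.4 ± 0.311 to 8.43 ± 0.293 FPKM (SD, n = 3 each; limma adjusted p = 8.21e-05). Alcam, an adhesion molecule, fell from 35.8 ± 0.421 to 30.1 ± 1.58 FPKM (limma adjusted p = 0.00565). Rhbdf1, which brings the protease Adam17 to the cell surface, rose from 8.07 ± 0.433 to 10.5 ± 1.69 FPKM (limma adjusted p = 0.0366, and 0.0537 after TPM scaling, where it was not called). Adam17, chosen after its values were seen, stood at 6.53, 6.97 and 6.62 FPKM in beta-Gal and 7.08, 3.80 and 4.35 FPKM in HuR. It was not called with all libraries (adjusted p = 0.136) and was called lower without HuR replicate 1 (adjusted p = 0.00104).

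Among the cytokines, Lif encodes a member of the interleukin 6 family that is known to drive acute phase genes in hepatocytes through Lifr and Il6st. Lif lies at chr11:4257557-4272514 on the plus strand. It stood at 0.991, 0.896 and 0.903 FPKM in beta-Gal, from 67 to 72 reads, and at 22.4, 8.95 and 7.77 FPKM in HuR. HuR replicates 2 and 3 were 8.98 times beta-Gal, the widest such ratio of the 9, and HuR replicate 1 was only 2.68 times the other HuR libraries. The means were 0.930 ± 0.0528 and 13.0 ± 8.11 FPKM (SD, n = 3 each). On the log2(FPKM + 1) scale the difference was 2.72, which understates a change from such a low level.

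Il23a encodes the p19 subunit of interleukin 23, which sustains T cells that make interleukin 17. It lies at chr10:128296139-128298752 on the minus strand. Beta-Gal libraries held 0.426, 0.638 and 1.07 FPKM, from 16, 25 and 41 reads, and HuR libraries 19.2, 5.11 and 5.14 FPKM. The groups were far apart, with HuR replicates 2 and 3 at 7.20 times beta-Gal and HuR replicate 1 at 3.76 times the other HuR libraries. Lif and Il23a overlapped in beta-Gal and were the lowest of the 9 there. Stat2 lies 3289 bases after Il23a on the opposite strand and was lower in the HuR libraries, with 10.3, 11.03 and 11.2 FPKM in beta-Gal and 7.38, 8.28 and 8.03 FPKM in HuR.

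Csf1 encodes the growth factor that keeps macrophages, Kupffer cells included, alive. At chr3:107741048-107760469 on the minus strand, it stood at 2.87, 3.28 and 3.62 FPKM in beta-Gal and at 9.21, 5.35 and 4.42 FPKM in HuR. The groups came close, with 3.62 FPKM as the highest beta-Gal value and 4.42 FPKM as the lowest HuR value. The step from beta-Gal to HuR replicates 2 and 3 was 0.47 on the log2(FPKM + 1) scale and the step to HuR replicate 1 was 0.80, or 1.88-fold in FPKM. Csf1 and Cxcl16 were the only ones of the 9 with a HuR replicate 1 under 2-fold above the other HuR libraries in FPKM. On the log2(FPKM + 1) scale, 7 of the 9 were at least 2-fold above each of those libraries, beside 0.78% of all genes tested, but this gap was part of how the genes were chosen.

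Icam1 encodes the cell surface ligand to which neutrophils and lymphocytes bind through integrins. It lies at chr9:21015985-21028817 on the plus strand. Its levels were tight in beta-Gal, at 16.6, 17.4 and 16.5 FPKM, and stood at 87.6, 39.0 and 38.4 FPKM in HuR. The lowest HuR library was above the highest beta-Gal library by a margin wider than the spread within beta-Gal, whose SD was 0.495 FPKM around a mean of 16.9. Both steps were alike in size for this gene, 2.30-fold from beta-Gal to HuR replicates 2 and 3 and 2.26-fold from there to HuR replicate 1. Mrpl4 ends 7145 bases before Icam1 on the same strand and stood at 7.64, 8.20 and 7.75 FPKM in beta-Gal and 6.52, 6.28 and 8.63 FPKM in HuR, with overlapping groups.

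The stretches of 3' UTR with the most pentamers in the cytokines and in Icam1 are shown for comparison with those of Cxcl1 and Cxcl2, with ATTTA in capitals. They were read on GRCm38 at chr10:128296179-128296208 on the minus strand for Il23a, chr11:4272414-4272443 on the plus strand for Lif and chr9:21028317-21028346 on the plus strand for Icam1.
Il23a: tgatggttATTTAttctATTTAtaaggaat
Lif: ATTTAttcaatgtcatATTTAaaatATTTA
Icam1: tcttgatgtATTTAttaATTTAgagtttta
The pentamers stand apart in these windows, whereas in Cxcl1 and Cxcl2 they overlap.

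Orders of levels are given in FPKM and depend on the gene lengths used. In beta-Gal the order was Ccl2, Cxcl1, Icam1, Cxcl2 and Cxcl16, Cxcl10 and Csf1, Lif and Il23a, and Cx3cl1. Cxcl2 overlapped Cxcl16, Cxcl10 overlapped Csf1 and Lif overlapped Il23a, so these neighbours did not differ beyond their spread. In HuR replicate 1 the order was Cxcl1, Ccl2, Cxcl2, Icam1, Cxcl10, Lif, Il23a, Cxcl16 and Csf1. Cxcl2 moved past Icam1, and Cxcl10, Lif and Il23a past Cxcl16. In HuR replicates 2 and 3, Cxcl2 was also above Icam1, with 44.2 and 44.5 against 39.0 and 38.4 FPKM. Cxcl10, Lif and Il23a were below Cxcl16 in those libraries. HuR replicates 2 and 3 stayed close to each other, with ratios of replicate 2 to replicate 3 between 0.871 and 1.21 over the 9 genes.

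**Figure D2:**
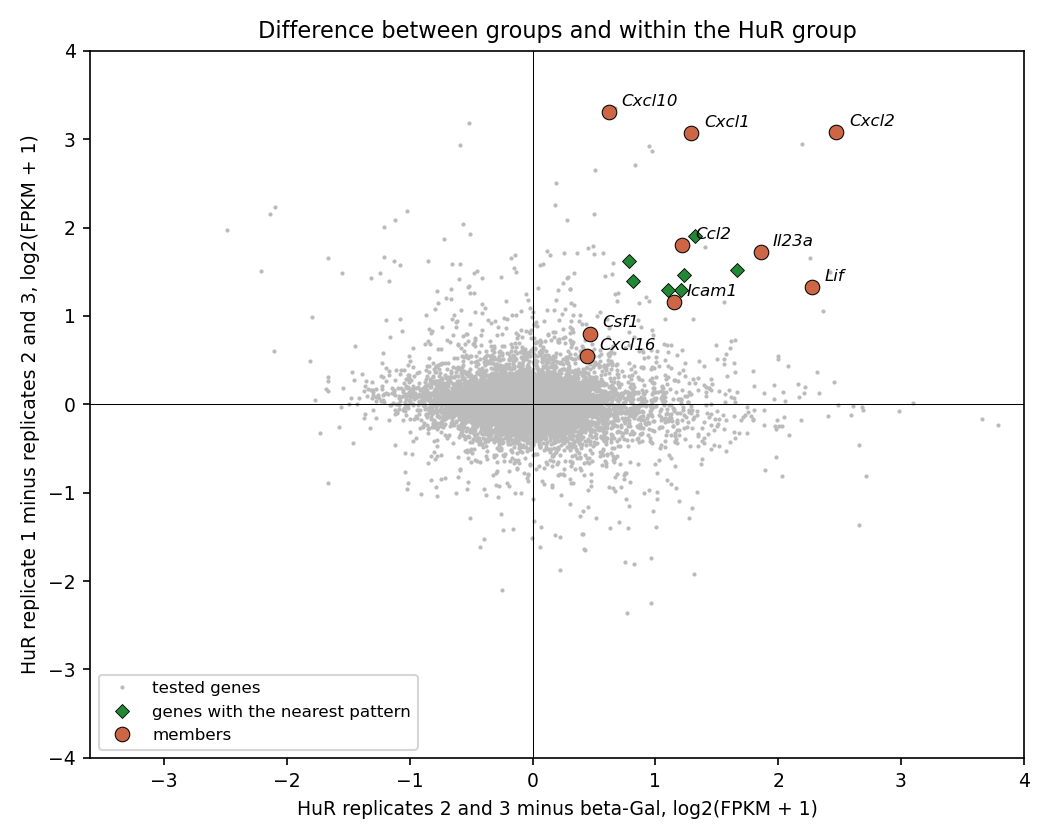
Each point is a gene tested, with the difference of HuR replicates 2 and 3 minus beta-Gal on the x axis and of HuR replicate 1 minus HuR replicates 2 and 3 on the y axis, both in log2(FPKM + 1). The 9 named genes lie above 0 on both axes, 6 of them above 1 on both, and 4 genes fall outside the plotted range.

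Both steps together describe the pattern. The median step from beta-Gal to HuR replicates 2 and 3 was 1.22 over the 9 genes and -0.014 over all genes tested, and the median step to HuR replicate 1 was 1.72 and 0.020. Both steps reached 1 in 17 genes, or 0.151% of those tested, and 6 of the 17 were Ccl2, Cxcl1, Cxcl2, Icam1, Il23a and Lif. Both steps were part of how the 9 genes were chosen, so nothing is read from their share of the 17. The others included Fos, Egr1, Gdf15, Phlda1, Pim1 and Zfp36. By distance from the median pair of steps over the 6 libraries, the nearest genes with a mean of at least 2 FPKM were an unnamed gene model (distance 0.19), Zfp36 (0.21), Phlda1 (0.27), Gdf15 (0.43), the processed pseudogene Gm11843 (0.45), Pde4b (0.45), Fos (0.49) and Csrnp1 (0.52). The unnamed model is near only in its means, since its HuR libraries held 28.4, 1.88 and 24.8 FPKM. Zfp36, the gene of tristetraprolin, stood at 6.14, 5.32 and 6.61 FPKM in beta-Gal and 64.8, 17.4 and 15.8 FPKM in HuR. Phlda1 stood at 20.8 to 21.4 FPKM in beta-Gal and at 142, 54.0 and 48.2 FPKM in HuR, and Gdf15, a stress hormone of hepatocytes, at 55.9 to 59.7 FPKM and at 327, 136 and 130 FPKM.

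Chemokine ligands other than the 6 above form a list of 36 genes, of which 6 were tested and 28 stayed under 1 FPKM in every library, 14 of them at 0. By limma 0 of the 6 were called higher or lower. At an unadjusted p under 0.05 there was 1, Ccl7, and limma on recovered reads (voom) called 0. Without HuR replicate 1, Ccl7 was called. The differences of the other 5, Ccl5, Ccl9, Ccl25, Ccl27a and Cxcl9, ran from -0.17 to 0.46 on the log2 scale, and the median difference of the list was 0.12.

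Other cytokines make up a list of 35 genes with 6 tested and 27 under 1 FPKM in every library. In HuR, 2 of the 6 rose (33.3%) and 1 fell (16.7%), against 20.7% and 24.8% of all genes tested, with a median of 0.088. Only 1 was called without HuR replicate 2, beta-Gal replicate 1 or beta-Gal replicate 3, and TPM scaling gave 1 higher and 1 lower. Spp1, osteopontin, rose from 142 ± 6.41 to 185 ± 7.58 FPKM (SD, n = 3 each; limma adjusted p = 0.00105). Mif, an inhibitor of macrophage migration made by many cells, rose from 403 ± 9.75 to 448 ± 21.7 FPKM (limma adjusted p = 0.0309, and 0.340 after TPM scaling, where it was not called). Tgfb2, a growth factor of the TGF-beta family, fell from 1.85 ± 0.277 to 1.158 ± 0.191 FPKM (limma adjusted p = 0.0241). Tnf, a cytokine of activated macrophages, was not tested and was chosen after its values were seen. It held 3, 1 and 9 reads in beta-Gal and 308, 25 and 10 reads in HuR, which is 12.5 FPKM in HuR replicate 1 and under 1 FPKM elsewhere. Il18, Il33 and Ctf1 differed by at most 0.10 on the log2 scale and were not called.

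Receptors for the 10 proteins, listed together with scavenging receptors for chemokines in general, were few in these cells. Of 17 genes, 14 stayed under 1 FPKM in every library and 4 of those were at 0. By limma 0 of the 3 tested genes were called, 0 had an unadjusted p under 0.05, and voom called 0. Lifr, the receptor of Lif, stood at 8.24 ± 0.237 and 7.86 ± 0.315 FPKM (SD, n = 3 each; adjusted p = 0.36). Il6st, the signalling chain it pairs with, stood at 11.5 ± 0.671 and 10.5 ± 1.57 FPKM (adjusted p = 0.35). Without HuR replicate 1, limma called 2 of the 3 lower, Il6st (adjusted p = 0.0197) and Ackr3, a chemokine scavenger (adjusted p = 0.0312).

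Upstream receptors and adaptors, which carry interleukin 1, TNF, Toll-like receptor and interferon signals, were mostly expressed, with 23 of 29 tested. In HuR, 7 rose (30.4%) and 4 fell (17.4%), against 20.7% and 24.8% of all genes tested. The median difference was 0.076, and TPM scaling gave 6 higher and 6 lower. Myd88, the adaptor of interleukin 1 and Toll-like receptors, rose from 7.51 ± 0.088 to 10.5 ± 0.603 FPKM (SD, n = 3 each; limma adjusted p = 0.00101). Ifnar2 rose from 13.7 ± 0.927 to 18.0 ± 1.03 FPKM (limma adjusted p = 0.0041). Its partner in the type I interferon receptor, Ifnar1, fell from 12.2 ± 0.268 to 7.06 ± 0.146 FPKM (limma adjusted p = 7.57e-05). Ripk1, a kinase of the TNF receptor complex, fell from 4.46 ± 0.206 to 2.92 ± 0.313 FPKM (limma adjusted p = 0.00293). Il1r1, the interleukin 1 receptor, chosen after its values were seen, was called higher, with 2.34, 2.30 and 2.48 FPKM in beta-Gal and 6.52, 3.84 and 4.02 FPKM in HuR (adjusted p = 0.0109). Tlr2, chosen in the same way, was the 1 gene of the list at least 2-fold higher in HuR replicate 1, with 20.6 FPKM against 7.90 and 7.85 FPKM, while beta-Gal held 12.0, 15.7 and 15.2 FPKM. It was called lower without that library (adjusted p = 0.00279) and not with it (adjusted p = 0.443).

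NF-kB and its regulators gave 21 tested genes of 23, with 7 higher in HuR (33.3%), 4 lower (19.0%) and a median of 0.16. Among all genes tested the shares were 20.7% and 24.8%. Birc3, a ubiquitin ligase and an NF-kB target, rose from 8.84 ± 0.454 to 22.2 ± 8.69 FPKM (SD, n = 3 each; limma adjusted p = 0.00653). Chuk, the kinase IKK alpha, fell from 38.0 ± 1.07 to 12.1 ± 1.46 FPKM (limma adjusted p = 4.45e-05). Ikbkg, the regulatory subunit NEMO, fell from 26.8 ± 0.522 to 21.2 ± 1.08 FPKM (limma adjusted p = 0.00196), and Map3k7, the kinase TAK1, from 9.15 ± 0.415 to 6.95 ± 0.248 FPKM (limma adjusted p = 0.00225). Without HuR replicate 1, where 19.4% of 10911 genes were called higher and 26.5% lower, the list gave 10 higher and 6 lower. Without any 1 of the beta-Gal libraries it gave 2 higher and 3 lower, so that the lower calls were then the more numerous, as they were with no filter on low values (2 and 3). TPM scaling gave 5 higher and 4 lower.

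In Nfkbia, Tnfaip3 and Nfkbiz of the NF-kB list, chosen after their values were seen, HuR replicate 1 was the highest library and HuR replicates 2 and 3 lay above beta-Gal. Nfkbib and Nfkbie showed the same order and were called higher (limma adjusted p = 0.0429 and 0.0356). After TPM scaling Nfkbib was not called (adjusted p = 0.0618). Some inhibitors in the list did not follow: Tnip1 stood at 10.1 to 10.3 FPKM in beta-Gal and at 11.4, 9.22 and 10.1 FPKM in HuR, and Cyld was called lower (limma adjusted p = 0.0292). Nfkbia, the inhibitor IkB alpha, stood at 17.7, 20.7 and 17.9 FPKM in beta-Gal and at 174, 28.4 and 25.7 FPKM in HuR. Tnfaip3, the deubiquitinase A20, stood at 1.58, 1.99 and 1.59 FPKM and at 43.2, 3.33 and 3.30 FPKM. Nfkbiz stood at 3.90, 4.29 and 4.86 FPKM and at 60.8, 8.76 and 8.23 FPKM. With HuR replicate 1 the adjusted p was 0.143 for Nfkbia, 0.137 for Tnfaip3 and 0.0855 for Nfkbiz. Without it the values were 0.00388, 0.00232 and 0.000801, so that these calls depend on the spread that 1 library adds. Rela, the main transactivating subunit, also chosen after its values were seen, stood at 60.5 to 62.0 FPKM in beta-Gal and at 76.7, 58.8 and 60.3 FPKM in HuR (adjusted p = 0.505). Of the other subunits, Nfkb1 rose from a mean of 6.27 to 12.9 FPKM, Nfkb2 from 20.4 to 29.9 and Relb from 8.23 to 11.3. All were called higher (limma adjusted p = 0.0353, 0.0252 and 0.0486), but Relb was not after TPM scaling (adjusted p = 0.0647). Rel was not tested.

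Regulators of the decay of cytokine messages gave 13 tested genes of 15, with 6 higher in HuR (46.2%), 2 lower (15.4%) and a median of 0.29. Among all genes tested the shares were 20.7% and 24.8%. TPM scaling gave 5 higher and 3 lower, and without beta-Gal replicate 1 or 2 there were 2 higher and 2 lower. Zfp36, described above, was called higher (adjusted p = 0.0181, and 0.000199 without HuR replicate 1). Its relative Zfp36l2 rose from 8.49 ± 0.693 to 14.2 ± 2.22 FPKM (SD, n = 3 each; limma adjusted p = 0.00335). Rc3h1, roquin, which binds stem-loops in such messages, rose from 5.22 ± 0.261 to 7.52 ± 0.482 FPKM (limma adjusted p = 0.00157). Hnrnpd, the AU-rich element binder AUF1, fell from 9.33 ± 0.804 to 5.20 ± 0.511 FPKM (limma adjusted p = 0.00074). Mapk14, the kinase p38 alpha, which acts on tristetraprolin through Mapkapk2, fell from 30.5 ± 0.999 to 22.0 ± 1.59 FPKM (limma adjusted p = 0.00122). Zc3h12a, the endonuclease regnase 1, chosen after its values were seen, stood at 4.32, 4.72 and 4.44 FPKM in beta-Gal and 22.2, 6.26 and 5.85 FPKM in HuR (adjusted p = 0.131, and 0.00467 without HuR replicate 1).

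**Figure D3:**
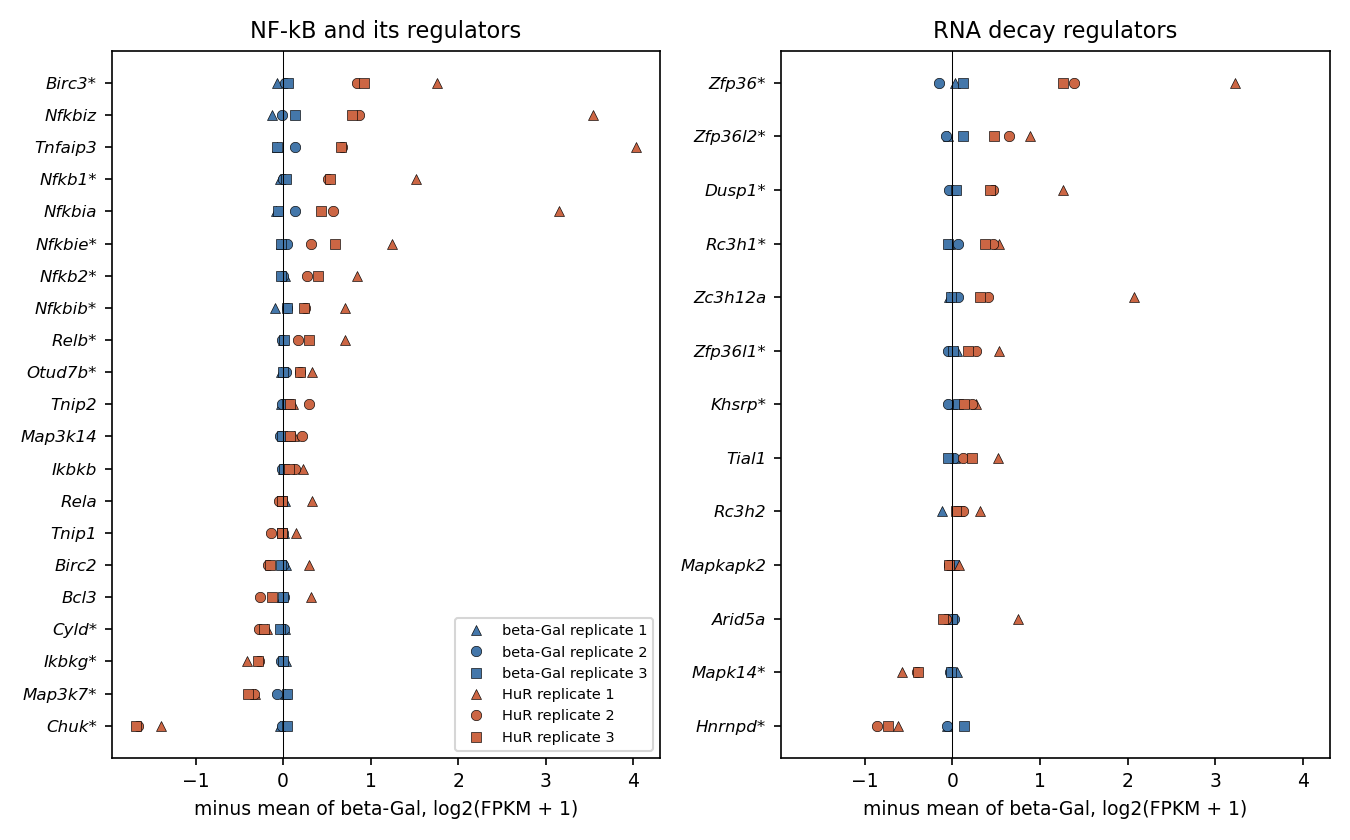
Regulators of NF-kB and of message decay in each library, as log2(FPKM + 1) minus the mean of beta-Gal for the same gene. An asterisk marks genes called by limma. HuR replicate 1 stands above the other HuR libraries in Nfkbia, Tnfaip3, Nfkbiz, Zfp36 and Zc3h12a, while Chuk lies below beta-Gal in all 3 HuR libraries.

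Across the 10 genes, the annotated 3' UTRs held at least 1 ATTTA in all 10 and at least 3 in 6, compared with 67.0% and 34.8% of the 9440 tested genes with a 3' UTR of at least 50 bases. The nonamer TTATTTATT, which contains the pentamer, was found in 5 of the 10 and in 7.01% of those genes. The density was above the background median of 1.27 per kb in 9 of the 10. It exceeded that of 99.8% of the tested genes in Cxcl2, 99.5% in Cxcl1, 98.8% in Il23a and 92.1% in Icam1. Cxcl10, with 2.74 per kb, and Ccl2, with 3.64, stood above 76.7% and 86.3%, Lif and Csf1 above 68.5% and 62.9%, and Cxcl16 and Cx3cl1 above 52.8% and 35.4%. Cxcl10, with the widest gap to HuR replicate 1, holds 2 pentamers and 0 nonamers. Cxcl2 and Cxcl1, with the next widest gaps at 8.62-fold and 8.46-fold, hold 11 and 7 pentamers and 4 and 2 nonamers. A link between these motifs and the gap was not tested.

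**Figure D4:**
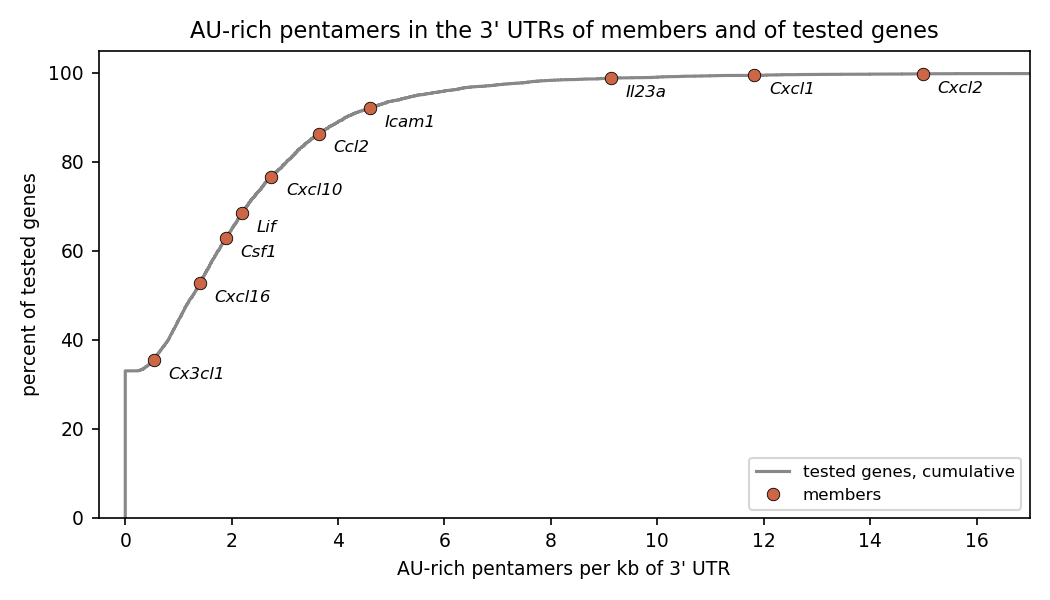
Cumulative share of tested genes by density of the AU-rich pentamer in the 3' UTR, in matches per kb, with the 10 named genes marked on the curve. Cxcl2, Cxcl1 and Il23a lie at the top of the curve and Cx3cl1 in its lower part.

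Start regions were found in the RefSeq table for 7 of the 10, with 250 bases before and 50 after the start. The kappa-B consensus, on either strand, matched in 5 of the 7, in 8.46% of 32851 such regions and in 10.1% of the 10112 regions of tested genes. GGAANTTCC, on either strand and partly inside that consensus, matched in 4 of the 7 (Cxcl1, Cxcl2, Cxcl10 and Icam1). It matched in 0.928% of all regions and in 1.07% of those of tested genes. TGANTCA, the AP-1 motif, matched in Cxcl10 and Lif, in 7.81% of all regions and in 5.18% of those of tested genes. The region of Cxcl10 is shown because it holds 2 separate kappa-B stretches, at -159 and from -104, and that of Icam1 because its only match, at -153, is GGAANTTCC. They lie at chr5:92348890-92349089 on the minus strand and chr9:21015740-21015939 on the plus strand of GRCm38.p6, with matches to either motif in capitals.
Cxcl10: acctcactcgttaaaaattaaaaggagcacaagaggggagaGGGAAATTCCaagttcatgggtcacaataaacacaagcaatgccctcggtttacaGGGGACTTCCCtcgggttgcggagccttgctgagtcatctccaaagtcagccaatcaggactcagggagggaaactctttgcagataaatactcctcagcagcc
Icam1: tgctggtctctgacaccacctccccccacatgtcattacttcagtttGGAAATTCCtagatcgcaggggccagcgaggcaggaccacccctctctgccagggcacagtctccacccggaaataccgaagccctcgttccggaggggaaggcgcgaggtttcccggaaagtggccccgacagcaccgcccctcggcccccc
In Csf1 and Lif a single kappa-B match was found, at -154 on the minus strand of the gene and at -178. No match was found in Cx3cl1.

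Genes outside the 10 with the same motifs were close to the background in the difference between the groups. Among 599 tested genes with at least 5 pentamers per kb, 21.5% were called higher in HuR and 27.5% lower, and the median difference was -0.0071. Over all 9432 tested genes with a 3' UTR the values were 20.6%, 27.7% and -0.023. HuR replicate 1 was at least 2-fold above both other HuR libraries in 0.501% of the first and 0.498% of the second. Among 938 tested genes with the kappa-B consensus, 22.3% were called higher and 27.0% lower, beside 20.8% and 26.9% of 7938 with a start region. The gap to HuR replicate 1 was found in 1.28% of the genes with the consensus, in 3.03% of 99 genes with GGAANTTCC and in 0.441% of those with a start region, and these shares were not tested.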

How the data were processed

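RNA of 6 samples of primary mouse hepatocytes, 3 with beta-Gal and 3 with HuR adenovirus, was sequenced on an Illumina NovaSeq instrument. The authors deposited 1 table of FPKM per gene. HISAT2 2.0.5, featureCounts 1.5.0-p3, DESeq2 1.16.1 and GRCm38.p6 are named in the submitters' processing notes. Their settings are not given in the sources used here. FPKM times the deposited gene length gave whole reads for all values within 0.001 reads, and these reads are used for depth.

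Genes with at least 1 FPKM in 3 of 6 libraries were compared on log2(FPKM + 1), HuR minus beta-Gal, with limma 3.58.1 in R 4.3.3 (trend, Benjamini-Hochberg adjustment, threshold 0.05). The fit was also run on simulated data in which no library stood apart. That run does not bear on genes in which HuR replicate 1 stands apart. The pseudocount shrinks fold changes of low genes. Gene lengths are those of the deposited models, so retained introns lower the FPKM. Alternatives were a pseudocount of 0.5, no filter, TPM scaling, a replicate block, voom on recovered reads and leaving out each library.

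The 10 genes and all lists were chosen with earlier results of these data known. Named in each list are up to 4 called genes with the smallest adjusted p, or the 2 highest where none was called, together with expressed genes within 10 kb of a member and the 8 genes nearest in pattern. Sequences are from GENCODE M21 transcripts and RefSeq start regions. Of the deposited models, 99.1% were found in the annotation, all 10 genes with the same coordinates.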

Additional observations from a re-analysis of the deposited data

How the results depend on the processing

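All genes called numbered 5137 with all libraries, 5122 with a pseudocount of 0.5, 4997 with no filter, 5261 with TPM scaling, 5391 with voom on recovered reads, 4549 with the replicate block and 3831 to 5010 when 1 library was left out. Under TPM scaling the median difference of all genes was -0.11 in place of -0.0099, and the share of lower calls was 70.7%. Over all genes tested, samples with the same number did not deviate together (correlations of -0.029, 0.00067 and -0.014). These values cannot tell whether such samples share a mouse or culture, and the labels do not say whether the numbers pair them. The replicate block gave 8 calls for NF-kB and its regulators and 7 for decay regulators, and 0 for chemokine ligands and receptors. Calls for NF-kB and its regulators numbered 11, but 5 with no filter (2 higher, 3 lower) and 5 to 16 with 1 library left out. Those for decay regulators numbered 8, but 5 with no filter and 4 to 10. Those for sheddases and adhesion molecules numbered 3, but 5 with voom (3 higher, 2 lower) and 2 to 5. Other cytokines gave 3 and 1 to 3, other chemokine ligands 0 and 0 to 1, upstream receptors 11 and 8 to 13. Receptors gave 0, 1 with TPM scaling and 0 to 2 with 1 library left out. Among the counts with 1 library left out, the highest came without HuR replicate 1 in all 7 lists. The cause was not tested. Without HuR replicate 1, the log2 difference went from 2.32 to 1.29 for Cxcl1, from 1.72 to 0.62 for Cxcl10 and from 0.73 to 0.47 for Csf1, each by over 1.5 times. Depth limits Cx3cl1, and the low beta-Gal levels of Lif and Il23a rest on 16 to 72 reads a library.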

Other observations

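Of the 88 genes at least 2-fold higher in HuR replicate 1 than in both other HuR libraries, 57 were protein-coding, 13 were small nucleolar RNAs and 8 were microRNA genes. Genes named here were chosen after their values were seen. Ier3, an immediate early gene, stood at 463, 61.8 and 58.7 FPKM in HuR and at 29.2 to 31.7 FPKM in beta-Gal. Rnd1, a small GTPase, stood at 274, 37.6 and 35.5 FPKM in HuR. Irf1, a factor of the interferon response, stood at 37.1, 10.1 and 10.9 FPKM in HuR and at 9.46 to 9.69 FPKM in beta-Gal. Nos2, the inducible nitric oxide synthase, stood at 11.6, 1.83 and 2.15 FPKM in HuR. For Irf1, HuR replicates 2 and 3 lay close to beta-Gal, unlike Ier3, where they were higher. In HuR replicate 1, 27 genes were at least 2-fold lower than in both other HuR libraries. This number was close to that of the other libraries, where 21 to 26 genes were as far below both libraries of the same group.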
